A study of Mus musculus with 2 samples.

Results

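Retinal pigment epithelium (RPE) cells of the newborn mouse eye cup were selected on their own pigment transcripts. A cell barcode with at least 200 genes and at most 15% mitochondrial transcripts was kept, and it was taken as a pigment cell when 6 melanin genes (Pmel, Tyrp1, Dct, Mlana, Tyr and Slc45a2) made up at least 1% of its unique molecular identifiers (UMIs, each 1 captured RNA molecule) and it held no UMI of Pax3 or Mcoln3, which mark melanocytes. The gate took 638 of the 26527 barcodes in both libraries. These were 448 of the 14131 kept barcodes in the control library and 190 of the 12027 kept barcodes in the mutant library.

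The study asked what the transcription factor gene Myrf does in the developing eye, and the libraries described here are single cell RNA sequencing at postnatal day 0. The control library was from Myrf fl/fl mice, which carry the conditional (floxed) Myrf allele on both chromosomes and no Cre. The mutant library was from Rx>cre Myrf fl/fl mice, in which Cre recombinase under the eye field promoter Rx acts in the early eye field, so that the neural retina, ciliary margin and RPE are all targeted. Each library pooled 3 eye cups freed of cornea, lens and optic nerve. There was 1 library per genotype and hence no replicate. No difference between genotypes was therefore tested, and each interval below is a 95% exact interval for counting error only.

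The RPE is the pigmented sheet of epithelium that separates the choroidal vessels from the neural retina. It makes melanin, regenerates the visual chromophore for photoreceptors, carries nutrients, ions and lactate across the blood-retina barrier, and secretes and rests on Bruch's membrane. Its fate depends on Mitf, Otx2 and Pax6. MYRF is a membrane-bound transcription factor best known for driving myelin genes in oligodendrocytes, and TMEM98 is its binding partner in the membrane.

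The members held 3225645 UMIs in the control library and 2483239 in the mutant library. Their depth differed: the median member had 2824 UMIs and 1418.5 genes in the control and 12544.5 UMIs and 3740.5 genes in the mutant, while all other barcodes had medians of 4243 and 4971 UMIs. Of the members, 249 control and 48 mutant barcodes had up to 4000 UMIs, and 199 and 142 had more. Ratios given for the shallow members therefore rest on few mutant UMIs for less abundant genes and carry no interval. Median mitochondrial shares of the members were 4.94% and 5.76%, against 3.84% and 3.29% in all other barcodes. There were 59 barcode sequences present in both libraries, and none of them belonged to members in both. Levels are given as CPM, the UMIs of a gene out of every 1000000 UMIs summed over the members, and ratios as log2 of mutant over control members after adding 1 CPM, with the interval of the plain ratio in brackets.

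Members made up 3.17% of kept barcodes in the control library (2.89% to 3.47%) and 1.58% in the mutant library (1.36% to 1.82%). The mutant share was 2.01-fold lower, a log2 ratio of -1.005 (-1.26 to -0.76). It was -0.39 (1.97% and 1.505%) without the members that carried markers of another cell class, described below, and -1.65 with a mitochondrial limit of 5%. The gap also varied with depth. Members with more than 4000 UMIs were 1.41% of control and 1.18% of mutant kept barcodes, while those with up to 4000 UMIs were 1.76% and 0.399%. Out of the kept barcodes of the same depth class alone, they were 2.61% and 1.73% above 4000 UMIs and 3.82% and 1.26% up to 4000. A further 33 control and 23 mutant barcodes were over the pigment threshold but held a Pax3 or Mcoln3 UMI and were set aside. The share also differed with the sex-linked transcripts that a barcode held. The sex of the pooled animals is not in the sample labels, and catching such a UMI also depends on depth. Among barcodes with Xist and no Y-linked UMI, members were 7.47% (77 of 1031) in the control and 1.02% (86 of 8392) in the mutant. Among barcodes with a Y-linked UMI and no Xist the order was the other way, at 1.64% (117 of 7134, 1.36% to 1.96%) in the control and 2.03% (33 of 1625, 1.40% to 2.84%) in the mutant. Barcodes with neither held most control members, and their shares were close, at 4.14% (233 of 5625) and 4.45% (61 of 1372). Those with both gave 6.16% (21 of 341) and 1.57% (10 of 638). Genotype and the animals in each pool cannot be told apart with these 2 libraries.

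**Figure D1:**
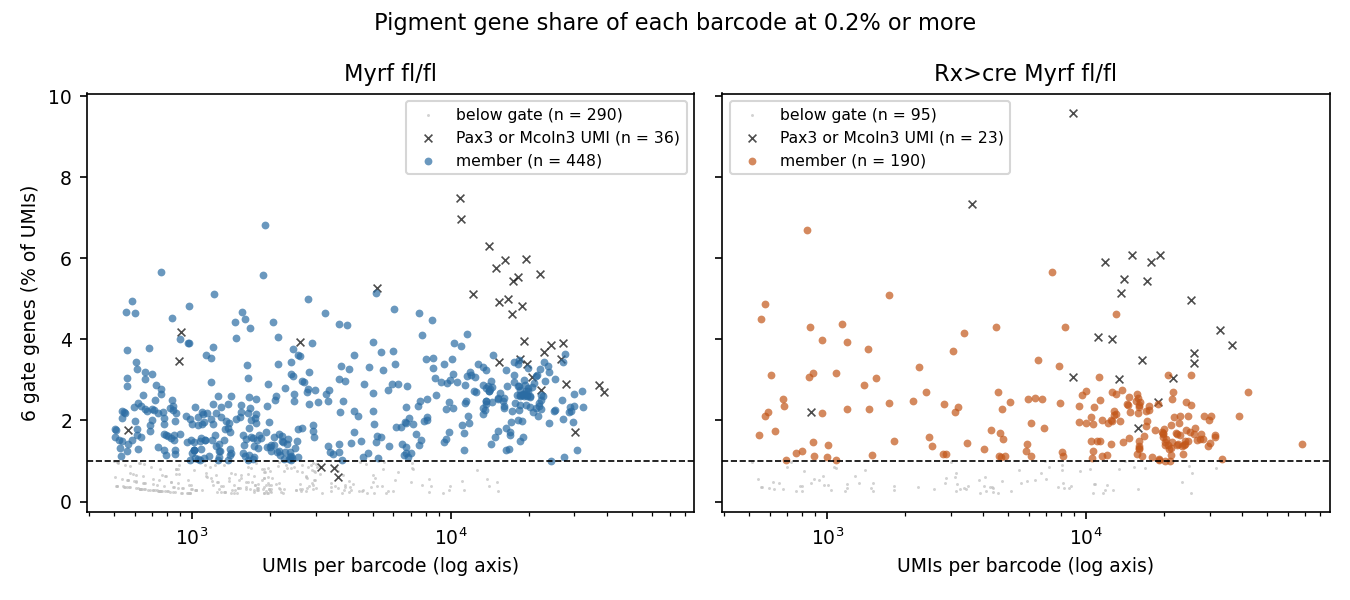
Share of UMIs from the 6 gate genes (y axis, percent) against UMIs per barcode (x axis, log scale) for every kept barcode at 0.2% or more, in the Myrf fl/fl library (left, blue members) and the Rx>cre Myrf fl/fl library (right, orange members). Crosses are barcodes with a Pax3 or Mcoln3 UMI, the dashed line is the 1% gate, and mutant members lie mostly at high depth whereas control members are spread over the whole range (medians 12544.5 and 2824 UMIs).

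The gate genes chose the members, so their levels are a description. The median member gave them 2.25% of its UMIs in the control (highest 6.82%) and 1.94% in the mutant (highest 6.69%), and all other barcodes gave them a mean of 0.0428% and 0.0306%. Pmel, which forms the fibrils of the melanosome, stood at 14738 CPM in control members and 10957 in mutant members. Dct, the dopachrome tautomerase, stood at 6312 and 4592 CPM, and Tyrp1, a tyrosinase-related melanosomal enzyme, at 1489 and 981 CPM. Mlana was at 1289 and 991 CPM and the melanosomal transporter gene Slc45a2 at 115 and 74.1 CPM. Tyr, the rate-limiting enzyme of melanin synthesis, was the exception, at 996 and 1199 CPM. All 6 were thus within 2-fold between genotypes, which the gate itself favours, since it asks the same minimum share in both libraries. Their order depended on depth: in members with up to 4000 UMIs the log2 ratio was 0.22 for Pmel, 0.59 for Mlana and -0.04 for Tyr, against -0.43, -0.38 and 0.27 in all members.

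Just inside the threshold, at 1% to 1.2%, lay 38 control and 26 mutant members, whose 15 RPE marker genes summed to 7508 and 4577 CPM. Just outside it, at 0.8% to 1%, lay 42 control and 15 mutant barcodes, with 5160 and 3597 CPM of the same markers. Barcodes on both sides of the threshold therefore carried RPE markers well above the 537 and 565 CPM of all other barcodes. The 38 control members nearest the threshold also carried 45204 CPM of mesenchyme markers, against 241 CPM in the 26 mutant ones.

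Summed over the members, marker genes that the gate did not use gave the profile of RPE. Singly, 366 of 448 control members and 84 of 190 mutant members had at least 0.5% of UMIs from 15 such RPE markers. The 15 RPE markers, Ttr, Rlbp1 and Trpm1 among them, summed to 13087 CPM in control members against 537 CPM in all other control barcodes, and to 5564 against 565 CPM in the mutant. All 15 were above the other barcodes in the control and 14 in the mutant, the exception being Rpe65, the retinoid isomerase, which had 11 UMIs in control members and none in mutant members. The 8 ciliary margin markers summed to 874 and 1125 CPM in members against 213 and 181 CPM in all other barcodes, where 4 of the 8 genes were above the other barcodes in each library, and Gja1 gave 488 and 820 CPM of the sum. The 8 retinal progenitor markers summed to 1170 and 1417 CPM against 4125 and 4867 CPM. The 12 melanocyte markers, a list that includes Sox10, summed to 414 and 205 CPM against 126 and 127 CPM.

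Markers of non-retinal cells were unequal between genotypes. The 9 mesenchyme markers, the collagen gene Col1a1 the most abundant, summed to 3318 CPM in control members and 279 CPM in mutant members, below the 16574 and 11994 CPM of all other barcodes. They reached 0.5% of UMIs in 155 control members and in no mutant member, where 1 of the 9 was at 0. The 6 red blood cell markers summed to 693 and 87.4 CPM, against 11769 and 11011 CPM in all other barcodes. The 7 lens markers summed to 235 and 38.3 CPM, against 508 and 2.83 CPM in all other barcodes. Lens transcripts were thus also rarer in the rest of the mutant library. Other lists ran the other way, with the 6 mural markers at 243 and 290 CPM and the 6 surface epithelium markers at 45.0 and 79.3 CPM. Members with any marker list of another class at 0.5% or more, the retinal, mural and melanocyte lists included, numbered 169 control (37.7%) and 9 mutant (4.74%) barcodes, and retinal progenitor markers accounted for 5 of these 9. Without these members the ratio of Col1a1 was -2.73 in place of -5.49. That of Hbb-bs, the most abundant red blood cell marker, was 0.41 in place of -3.14. For the genes described below the value without these members is given where it ended a 2-fold call or moved the ratio by over 1.5 times. The part of transcripts of other classes in any other difference was not tested.

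**Figure D2:**
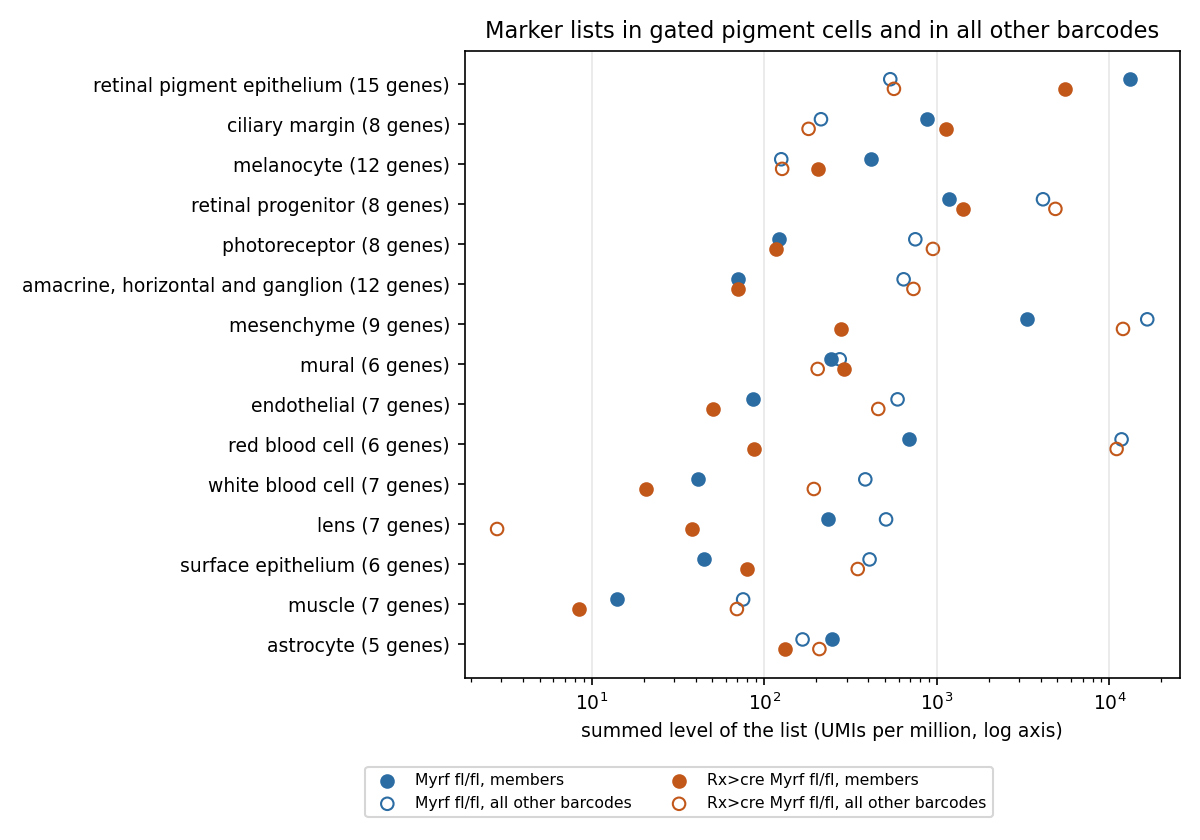
Summed level of each cell type marker list (x axis, CPM, log scale) in members (filled) and in all other barcodes (open) of the Myrf fl/fl (blue) and Rx>cre Myrf fl/fl (orange) libraries. RPE markers stand at 13087 and 5564 CPM in members, and mesenchyme markers at 3318 and 279 CPM.

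The genes most above all other barcodes in both libraries describe what these cells have in common whatever the genotype. The 15 leading ones were Klk4, Slc16a8, Ttr, Slc4a5, Tmem27, Gm33489, Col4a3, Ggt1, Krt18, Tmem72, Tspan10, Rdh5, Elovl7, Ptgds and Stra6, with a log2 ratio over other barcodes of at least 7.14 for Klk4 and at least 6.04 for Stra6 in whichever library was lower. Of 7784 genes measured in members of both libraries, 417 were at least 4-fold above all other barcodes in both (5.36%). Since the cells were selected within the same libraries, this is no test of a difference. Krt18, a keratin of simple epithelia, was at 2237 CPM in control and 1984 CPM in mutant members against 18.6 and 25.4 CPM elsewhere. Slc4a5, a sodium bicarbonate cotransporter, was at 600.5 and 459 CPM against 3.73 and 2.89 CPM. Klk4, a secreted serine protease, was at 245 and 335 CPM, and Col4a3, a basement membrane collagen chain, at 256 and 257 CPM. These 4 differed by less than 2-fold between genotypes. By contrast, 4 of the 15 were lower in the mutant by 2-fold or more, against 4.36% of all genes measured between genotypes: Ttr, Slc16a8, Rdh5 and Ptgds. The calls of Rdh5 (-0.74 in members with up to 4000 UMIs) and Ptgds (-0.30 with up to 2000 UMIs) ended in other settings. Transcripts of Rdh5 and Stra6 overlap those of another counted gene on the same strand (Bloc1s1 and Gm16131), so their reads may be shared. The same holds for Trf (Gm20425) and Ctsd (Gm49369), which are named further below.

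Between genotypes, 10341 genes had at least 30 UMIs over the members of both libraries. Of these, 451 were at least 2-fold lower in mutant members (4.36%) and 244 at least 2-fold higher (2.36%), and the median gene had a log2 ratio of 0.00. Among the 451 lower genes, 138 stood lower in control members than in all other control barcodes. Counts among genes typical of the members depended on which library chose them. Of 606 genes at least 4-fold above other barcodes in control members, 154 were lower in the mutant (25.4%), 17 were higher (2.81%) and 435 were within 2-fold. Of 531 genes at least 4-fold above other barcodes in mutant members, 49 were lower (9.23%) and 68 higher (12.8%). Both sets were chosen on the levels being compared, so the direction of each imbalance is partly set by the choice.

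Myrf itself was at 237 CPM in control members (763 UMIs) and 28.6 CPM in mutant members (71 UMIs), a log2 ratio of -3.00 (-3.42 to -2.70). All other barcodes had 1.59 and 0.790 CPM, so the level of Myrf was higher in members than elsewhere in both libraries. When every barcode was reduced to 1000 UMIs, which left out 80 control and 20 mutant members, 13.9% of 368 control and 2.35% of 170 mutant members held a Myrf UMI. Before thinning the shares were 45.3% and 26.3%. Retinal barcodes, those with at least 2 UMIs of retinal progenitor markers and none of a gate gene, served as background. Their thinned shares were 0.122% and 0.113%, at median depths of 4339 and 4972 UMIs. The residual mutant share was above this background. Barcodes with any gate gene UMI were left out of it, so it may understate stray RPE transcripts. Reads from the 3′ end of a transcript need not cover the floxed part, so the level is no measure of recombination. Tmem98 was at 545 CPM in control and 150 CPM in mutant members, a log2 ratio of -1.86 (-2.03 to -1.70), but of -0.87 in members with up to 2000 UMIs.

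The genes named as lowest were taken among those at least 2 times as high in control members as in other control barcodes, and most were rare in mutant members. Col1a1 (-5.49) and the lens crystallin gene Cryaa (163 and 0 UMIs, -5.69, or -5.01 without the members with markers of another class) were as low, but stood below the other control barcodes and were not named by this rule. Lens markers as a sum were also far lower in the other mutant barcodes (2.83 CPM) than in the other control barcodes (508 CPM). Rgr, an opsin of the RPE that isomerises retinal (chr14:37034909-37048964 in GRCm38, minus strand), had 3690 UMIs in control members and 17 in mutant members, at 1144 and 6.85 CPM, a log2 ratio of -7.19 (-8.17 to -6.70). It was found in 48.4% of control and 6.84% of mutant members. Reduced to 1000 UMIs, 33.7% of control members and 0 of 170 mutant members held it, which (at 3 counts) allows up to 1.76% of barcodes with a UMI at that depth and sets no limit on cells expressing the gene, and the retinal barcodes stood at 0.438% and 0.124%. Upk3b, a uroplakin of apical membrane plaques (chr5:136038496-136046487, plus strand), had 1129 and 7 UMIs, at 350 and 2.82 CPM, a log2 ratio of -6.52 (-8.27 to -5.91). Its partner uroplakin gene Upk1b (chr16:38773184-38800328, minus strand) had 480 and 8 UMIs, a log2 ratio of -5.15 (-6.75 to -4.54). Both uroplakins were common in control members and rare in mutant ones, with a UMI in 49.6% and 1.05% of members for Upk3b and in 39.7% and 2.11% for Upk1b.

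The promoters of Rgr and Upk3b are shown because these genes had the lowest ratios of the protein coding genes. Those of Tyrp1, Tyr and Dct are shown because, of the gate genes, these had a promoter in the table. Each runs 5′ to 3′ on the gene's strand, from 250 bases before to 50 after a RefSeq transcript start in GRCm38.p6. Capitals mark CATGTG, the core bound by MITF, TAATCC, the core bound by OTX2, and CTGGNAC, a core described for MYRF, each searched on both strands. In Dct the first 2 matches, CTGGNAC and the reverse complement of CATGTG, overlap.
Rgr promoter, chr14:37048965-37049264, minus strand: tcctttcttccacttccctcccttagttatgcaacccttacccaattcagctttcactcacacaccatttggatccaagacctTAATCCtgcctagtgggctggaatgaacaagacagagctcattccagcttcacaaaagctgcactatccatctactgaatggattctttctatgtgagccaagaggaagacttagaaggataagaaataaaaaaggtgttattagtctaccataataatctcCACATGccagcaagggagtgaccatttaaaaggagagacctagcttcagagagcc
Upk3b promoter, chr5:136038246-136038545, plus strand: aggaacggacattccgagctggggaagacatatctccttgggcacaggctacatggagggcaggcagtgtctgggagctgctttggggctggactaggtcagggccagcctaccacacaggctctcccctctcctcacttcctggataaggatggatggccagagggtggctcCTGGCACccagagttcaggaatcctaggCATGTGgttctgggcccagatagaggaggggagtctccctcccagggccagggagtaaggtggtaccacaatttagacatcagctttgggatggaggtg
Tyrp1 promoter, chr4:80833963-80834262, plus strand: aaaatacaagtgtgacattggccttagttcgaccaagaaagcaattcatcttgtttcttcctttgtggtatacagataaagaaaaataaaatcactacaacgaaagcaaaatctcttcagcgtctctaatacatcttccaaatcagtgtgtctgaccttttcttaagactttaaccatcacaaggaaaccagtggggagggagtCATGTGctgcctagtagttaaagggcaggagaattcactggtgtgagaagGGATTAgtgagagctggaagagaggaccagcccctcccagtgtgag
Tyr promoter, chr7:87493463-87493762, minus strand: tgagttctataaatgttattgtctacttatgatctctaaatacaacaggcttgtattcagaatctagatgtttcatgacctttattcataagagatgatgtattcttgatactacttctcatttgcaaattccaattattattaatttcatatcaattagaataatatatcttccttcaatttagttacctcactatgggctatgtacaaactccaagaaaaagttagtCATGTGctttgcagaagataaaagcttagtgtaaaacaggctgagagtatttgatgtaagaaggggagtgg
Dct promoter, chr14:118052197-118052496, minus strand: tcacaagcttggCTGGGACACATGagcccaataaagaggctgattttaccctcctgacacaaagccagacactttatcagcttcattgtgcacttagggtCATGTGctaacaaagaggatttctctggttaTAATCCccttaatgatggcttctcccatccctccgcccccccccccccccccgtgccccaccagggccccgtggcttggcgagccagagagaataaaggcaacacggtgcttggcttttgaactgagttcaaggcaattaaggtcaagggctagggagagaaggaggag
In the table of 32851 promoters, CATGTG occurred in 14.2%, TAATCC in 7.06% and CTGGNAC in 19.3%. For 9 of the 12 lowest genes 13 promoters were matched, of which 5 held CATGTG, 1 held TAATCC and 4 held CTGGNAC. For 9 of the 12 highest genes 9 promoters were matched, of which 0, 1 and 1 held them, and for 3 gate genes 3 promoters, of which 3, 2 and 1 held them. For 12 of the 15 genes most above other barcodes 20 promoters were matched, of which 2, 0 and 7 held them. A match describes the letters in this window and not a bound site.

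Of the other 9 genes so named, 3 had no UMI in mutant members. The antisense transcript A930028N01Rik (chr19:40297971-40299555, plus strand) had 456 UMIs in control members, at least 117-fold higher than the limit of 3 UMIs in the mutant. Serpine3, a serine protease inhibitor, had 194 UMIs, at least 49.8-fold higher, all in 6.47% of control members. Gjb1, a connexin of gap junctions, had 161 UMIs, at least 41.3-fold higher. Thus, 3 genes with a clear signal in control members were not detectable in mutant members at this depth. Htr3a, a serotonin-gated ion channel subunit, had 474 and 4 UMIs, a log2 ratio of -5.82 (-8.39 to -5.15), or -2.79 in members with up to 4000 UMIs. The shallow value rests on at most these 4 mutant UMIs. Rasgrp3, an activator of Ras, had 569 and 12 UMIs, a log2 ratio of -4.93 (-6.15 to -4.37). Wfikkn2, a secreted protein that binds GDF ligands, had 1023 and 42 UMIs, a log2 ratio of -4.15 (-4.71 to -3.78), and was found in 48.0% of control and 18.4% of mutant members, or in 23.9% and 0.588% after thinning. The remaining 3 were Ramp2, Fxyd3 and Padi2, with log2 ratios of -5.42 (-6.43 to -4.91), -4.57 (-7.71 to -3.84) and -4.34 (-8.53 to -3.58). Ramp2 was also abundant outside the members (156 and 98.4 CPM), and it overlaps Vps25 on the same strand.

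The highest genes in mutant members were mostly of low level. Enpp2, which encodes the lysophosphatidic acid producing enzyme autotaxin (chr15:54838901-54952892, minus strand), was the most abundant, at 40.9 CPM in control and 302 CPM in mutant members, a log2 ratio of 2.85 (2.62 to 3.16), and in 17.0% and 68.9% of members. Reduced to 1000 UMIs, it was held by 5.43% and 19.4%. Npr3, the natriuretic peptide clearance receptor, was at 27.6 and 170 CPM, a log2 ratio of 2.58 (2.29 to 2.97). Lypd2 was at 13.6 and 113 CPM, a log2 ratio of 2.96 (2.58 to 3.54). These 3 had over 200 UMIs in mutant members, and the other 9 had under 100. Stac and Gabrg1, a subunit of the GABA-A receptor, had no UMI in control members and 54 and 47 UMIs in mutant members, at least 23.4-fold and 20.4-fold higher. Gabra2, another subunit of that receptor, had 5 and 81 UMIs, a log2 ratio of 3.72 (3.11 to 6.06), and lies beside Gabrg1 on chromosome 5. Nyap2, Alb, Vstm2a and Apoc1 had between 4 and 12 UMIs in control members and 45 to 92 in mutant members, with log2 ratios of 3.21, 3.09, 3.02 and 2.74. Smad9, a signal transducer of BMP receptors, had 4 and 33 UMIs (2.67, 1.93 to 5.38), and the axon guidance ligand gene Slit3 6 and 40 UMIs (2.58, 1.87 to 4.64). All 24 of the lowest and highest genes stayed past 2-fold in the same direction under every processing alternative that measured them. Of 18 alternatives, 15 to 18 measured each of the 12 lowest genes and 10 to 16 each of the 12 highest. None of the 12 highest was measured in members with up to 4000 UMIs, so their calls were not tested there. That setting ended the calls of Id3, Id1 and Lmo1, described below.

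**Figure D3:**
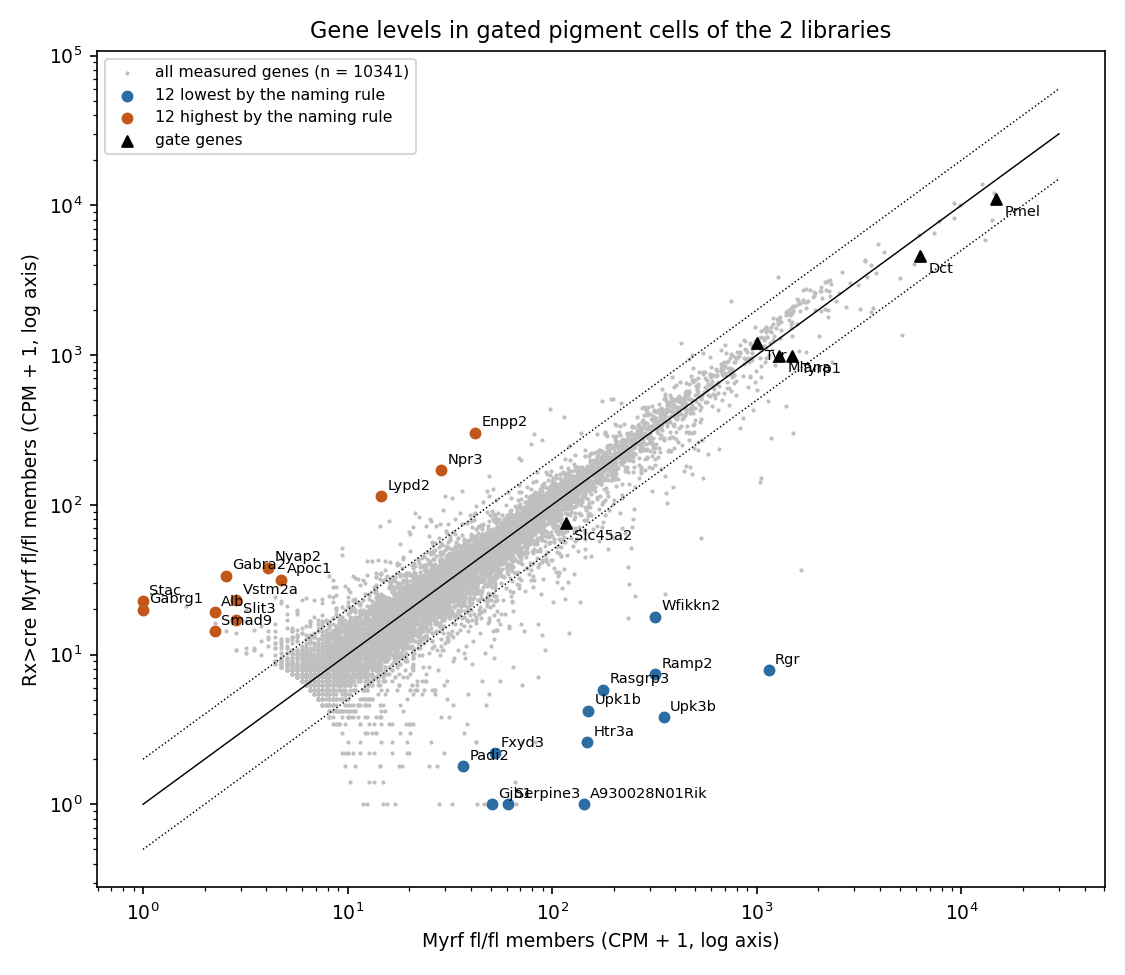
Level of each of 10341 measured genes in control members (x axis) and mutant members (y axis), in CPM plus 1 on log axes, with equality as a solid line and 2-fold differences dotted. The 12 lowest genes by the naming rule (blue) include Rgr at 1144 and 6.85 CPM, the 12 highest (orange) include Enpp2 at 40.9 and 302 CPM, and the gate genes (triangles) lie between the dotted lines.

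Visual cycle and retinoid genes were lower as a group in mutant members. Of 13 measured, 7 were at least 2-fold lower and none higher, against 4.36% and 2.36% of all measured genes, and the median log2 ratio was -1.08, against 0.00 over all genes. Besides Rgr, the 7 included Rdh10, a retinol dehydrogenase, at 1511 and 301 CPM (-2.32, -2.44 to -2.21), and Ttr, the transthyretin carrier of retinol binding protein, at 5146 and 1360 CPM (-1.92, -1.97 to -1.87). Rlbp1, which carries 11-cis retinal, was at 830 and 325 CPM (-1.35), Rdh5, the 11-cis retinol dehydrogenase, at 1140 and 496 CPM (-1.20), Rbp4 at 69.1 and 30.6 CPM (-1.15) and Rrh, peropsin, at 181 and 85.0 CPM (-1.08). Within 2-fold were Stra6, the receptor for retinol binding protein, at 485 and 412 CPM (-0.23), and Dhrs3 at 54.3 and 47.9 CPM (-0.18). Ratios within the group thus ran from -7.19 for Rgr to -0.18 for Dhrs3. Some of these ratios fell short of 2-fold in other settings: Rdh5 was at -0.74 in members with up to 4000 UMIs, Rlbp1 at -0.85 with up to 2000 UMIs and Rrh at -0.86 after thinning. Lrat, the retinyl ester forming enzyme, had 2 and 17 UMIs and was below the count minimum.

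Of 19 melanosome genes outside the gate, 1 was at least 2-fold lower and none higher, near the 4.36% and 2.36% of all genes, and the median log2 ratio was -0.25. The lower one was Gpr143, the melanosomal receptor mutated in ocular albinism, at 125 and 52.4 CPM (-1.24, -1.55 to -0.97), though at -0.72 in members with up to 4000 UMIs. Trpm1, a cation channel that hosts the microRNA Mir211, was at 1299 and 1305 CPM, and Slc7a11, the cystine transporter, at 21.1 and 41.9 CPM (0.96).

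Of 29 transport genes measured, 7 were at least 2-fold lower and 2 higher, against 4.36% and 2.36% of all measured genes. The other 20 were within 2-fold, and the median was -0.24. Slc16a8, the basolateral lactate transporter MCT3, was at 1394 and 459 CPM (-1.60, -1.70 to -1.51). Amino acid and neurotransmitter carriers were among the lower ones: Slc6a20a at 37.8 and 4.43 CPM (-2.84), Slc7a10 at 136 and 21.3 CPM (-2.62), Slc1a1 at 219 and 68.9 CPM (-1.65) and Slc6a13 at 51.5 and 21.7 CPM (-1.21). The others were the endocytic receptor gene Lrp2 (-1.32) and the lysolipid transporter gene Mfsd2a (-1.25). Higher were Folr1, a folate receptor, at 113 and 388 CPM (1.77, 1.60 to 1.95) and Slc16a12 at 8.37 and 45.1 CPM (2.30, 1.81 to 3.09). Bsg, the chaperone of lactate transporters, was at 4195 and 4903 CPM (0.22) and Atp1b1, a sodium pump subunit, at 419 and 440 CPM (0.07). The calls of Slc1a1 (-0.55 with up to 2000 UMIs), Slc6a13 (-0.95 with a gate of 2%), Lrp2 (-0.97 as a mean of the members' own shares) and Mfsd2a (-0.46 in the Y-linked barcodes) each ended in another setting.

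Among apical cytoskeleton and surface genes, 5 of 17 measured were at least 2-fold lower and none higher, against 4.36% and 2.36% of all genes, with a median of -0.19. Besides both uroplakins, they were Fscn1, the actin bundling protein fascin, at 254 and 23.8 CPM (-3.36, -3.82 to -3.03, or -1.80 in members with up to 4000 UMIs), Ermn, the cytoskeletal protein ermin, at 187 and 49.9 CPM (-1.88, -2.19 to -1.62), and Eps8 with 44 and 8 UMIs (-1.79, -3.38 to -0.98). Ezr, ezrin of the apical microvilli, was at 930 and 722 CPM (-0.37). Fscn1 was held by 17.1% of thinned control and 1.18% of thinned mutant members, against 13.77% and 12.04% of retinal barcodes. It was thus also common outside the members, where all other barcodes had 154 and 148 CPM.

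Of 16 cell junction genes, 4 were lower and none higher (all genes: 4.36% and 2.36%), with a median of -0.35. Cdh3, P-cadherin, was at 483 and 160 CPM (-1.59, -1.76 to -1.43) and Cldn2 at 47.4 and 22.1 CPM (-1.07). Gjb1 is given above, and Cldn5 (45 and 9 UMIs, -1.69) is also an endothelial gene at 143 and 100.5 CPM outside the members. Gja1, another connexin, was at 488 and 820 CPM (0.75), so the 2 connexins differed in direction. Cdh3 was at -0.71 with up to 2000 UMIs, Cldn2 at -0.95 with 5 CPM added and Cldn5 at -0.06 as a mean of the members' own shares.

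Basement membrane and Bruch's membrane genes counted 8 lower and 1 higher of 27 measured (all genes: 4.36% and 2.36%), with a median of -0.10. Timp3, an inhibitor of matrix proteases, was at 957 and 431 CPM (-1.15), Col8a2 at 388 and 130 CPM (-1.57), Col18a1 at 441 and 167 CPM (-1.39), Col9a3 at 2337 and 901 CPM (-1.37) and Crim1 at 358 and 119 CPM (-1.58). Col4a1 (-2.15), Col4a2 (-1.68) and Eln (-2.22) were also lower, and each was more abundant outside the members, as in mesenchyme. With up to 2000 UMIs, Timp3 was at -0.65 and Col9a3 at -0.97. Eln was at -1.15 without the members that carried markers of another class. The higher one was Efemp1, a fibulin of Bruch's membrane, at 48.1 and 155 CPM (1.67, 1.42 to 1.97). Col4a3 and Col4a4, chains of a separate collagen network, were at 0.01 and 0.26.

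Secreted factors counted 9 lower and 3 higher of 25 measured, again against 4.36% and 2.36% of all genes, with a median of -0.26. Ptgds, the prostaglandin D synthase, was the most abundant, at 13082 and 5883 CPM (-1.15), and its ratio was -0.30 in members with up to 2000 UMIs and -0.91 after thinning. Trf, transferrin, was at 1039 and 140 CPM (-2.88, -3.05 to -2.73), Sema3c at 246 and 69.7 CPM (-1.80), F3, tissue factor, at 196 and 58.8 CPM (-1.72), Pdgfc at 117 and 45.1 CPM (-1.36) and Sema3b at 355 and 156 CPM (-1.18). After thinning, Pdgfc was at -0.76 and Sema3b at -0.78. Serpine3 is given above, and Spp1 had 40 and 1 UMIs (-3.26, -10.28 to -2.38). Spp1 was more abundant outside the members (138 and 91.2 CPM), and it was not measured without the members with markers of another class. Igfbp2, a binding protein for insulin-like growth factors, was at 1274 and 3304 CPM (1.37, 1.32 to 1.43), and the other higher ones on this list were Enpp2 and Npr3, the latter a membrane receptor that binds a secreted ligand. Vegfa, which maintains the choroidal vessels, was at 236 and 197 CPM (-0.26), and Apoe at 7757 and 7891 CPM (0.02).

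Of 28 transcription factors of the eye field and RPE, 2 were lower and 1 higher, near the 4.36% and 2.36% of all genes, with a median of 0.02. Mitf was at 175 and 160 CPM (-0.13, -0.32 to 0.06), Otx2 at 690 and 557 CPM (-0.31), Pax6 at 104 and 158 CPM (0.60) and Sox9 at 200 and 200 CPM (0.00). Reduced to 1000 UMIs, 13.9% of control and 16.5% of mutant members held Mitf, against 0.267% and 0.169% of retinal barcodes. Otx2 was held by 38.6% and 35.3% of members, against 23.2% and 22.5% of retinal barcodes. Sox10 was the lowest, with 272 and 15 UMIs at 84.3 and 6.04 CPM (-3.60, -4.66 to -3.06). Its ratio was -1.87 in members with up to 4000 UMIs (105 and 28.0 CPM) and -3.69 in deeper ones. The shallow value rests on few of the 15 mutant UMIs. Klf4 had 33 and 9 UMIs (-1.28, or -0.82 with 5 CPM added and -0.95 without the members with markers of another class). Since Sox10 also marks melanocytes and Schwann cells, its place among the members was examined. In the 388 control and 129 mutant members with at least 0.3% of UMIs from Ttr, Cst3, Col8a1 and Col9a3 it was at 80.9 CPM (241 UMIs) and 3.20 CPM (6 UMIs). It was higher, at 421 CPM (28 UMIs), in the 25 control members low in both this set and the Gja1 set described at the end, and at 18.6 CPM (5 UMIs) in the 24 such mutant members. Most control UMIs of Sox10 were thus in members that carried RPE transcripts, but its level was highest outside them. Lmo1, a LIM domain cofactor, was the higher one, at 96.4 and 434 CPM (2.16, 1.99 to 2.36), and was held by 30 of 368 thinned control and 51 of 170 thinned mutant members. Its ratio was 0.26 in members with up to 2000 UMIs and 0.77 with up to 4000, both under 2-fold.

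The study's list of SOX10 regulon genes, which was drawn from RPE data of the same experiment and is not independent evidence, counted 33 lower and none higher of 44 measured, against 4.36% and 2.36% of all genes, with a median of -1.58. The 44 all had ratios below 0, and 11 were within 2-fold.

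Of 34 BMP and TGF-beta pathway genes measured, 28 were within 2-fold, 2 were lower and 4 higher, against 4.36% and 2.36% of all genes, with a median of -0.10 and 20 intervals that included 0. The lower ones were the ligand gene Bmp4, at 470 and 178 CPM (-1.40, -1.56 to -1.25), and the GDF-binding Wfikkn2. Other ligands were closer, with Bmp7 at 154 and 129 CPM (-0.26) and Bmp2 at 44.3 and 54.0 CPM (0.28), and the ligand antagonist gene Nog was at 106 and 63.6 CPM (-0.73). The 4 higher genes were 3 Id genes and Smad9. The Id genes, which encode inhibitors of bHLH factors and are direct BMP targets, were at 745 and 2301 CPM for Id3 (1.63, 1.56 to 1.70), 198 and 507 CPM for Id1 (1.35, 1.21 to 1.49) and 6.51 and 15.7 CPM for Id4 (1.15, or 0.79 as a mean of the members' own shares). Other genes downstream of the receptors were within 2-fold: Id2 was at 477 and 431 CPM (-0.15) and the inhibitory Smad6 at 24.5 and 45.9 CPM (0.88). Reduced to 1000 UMIs, 40.5% of control and 75.3% of mutant members held Id3, against 32.4% and 29.3% of retinal barcodes. Id1 was held by 12.8% and 31.8% of members, against 24.4% and 24.6% of retinal barcodes. The ratios depended on depth: in members with up to 4000 UMIs they were 0.57 for Id3 and 0.55 for Id1, both under 2-fold, and in deeper members 1.62 and 1.31. Lmo1 likewise was at 0.77 in the shallow and 2.27 in the deep members.

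WNT pathway genes counted 2 lower and 2 higher of 19 measured (all genes: 4.36% and 2.36%), with a median of 0.05. The receptor gene Fzd4 was at 101 and 37.0 CPM (-1.43) and Fzd1 at 32.6 and 78.9 CPM, the interval of its log2 ratio being 0.93 to 1.63. With a mitochondrial limit of 5% Fzd4 was at -0.71 and Fzd1 at 0.80. The inhibitor genes Dkk2 (29 and 3 UMIs, -2.18, -5.25 to -1.21) and Wif1 (11 and 25 UMIs, 1.33, but 0.08 with a gate of 0.5%) had few UMIs, whereas the inhibitor gene Sfrp1 was at 885 and 1080 CPM (0.29). Dkk2 was not measured without the members with markers of another class.

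None of 8 phagocytosis receptors and ligands passed 2-fold (median -0.25), near the 4.36% lower and 2.36% higher of all genes. Mertk, the receptor for shed outer segments, was at 17.7 and 10.9 CPM (-0.65) and its ligand gene Gas6 at 204 and 340 CPM (0.73). Of 26 lysosome genes 1 was lower, near the 4.36% of all genes. This was Tfeb, the regulator of lysosome biogenesis, with 63 and 13 UMIs (-1.72, -2.89 to -1.02), and the median was -0.05. Cst3, a cysteine protease inhibitor, was at 14191 and 7921 CPM (-0.84), and the protease gene Ctsd at 6586 and 4287 CPM (-0.62).

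**Figure D4:**
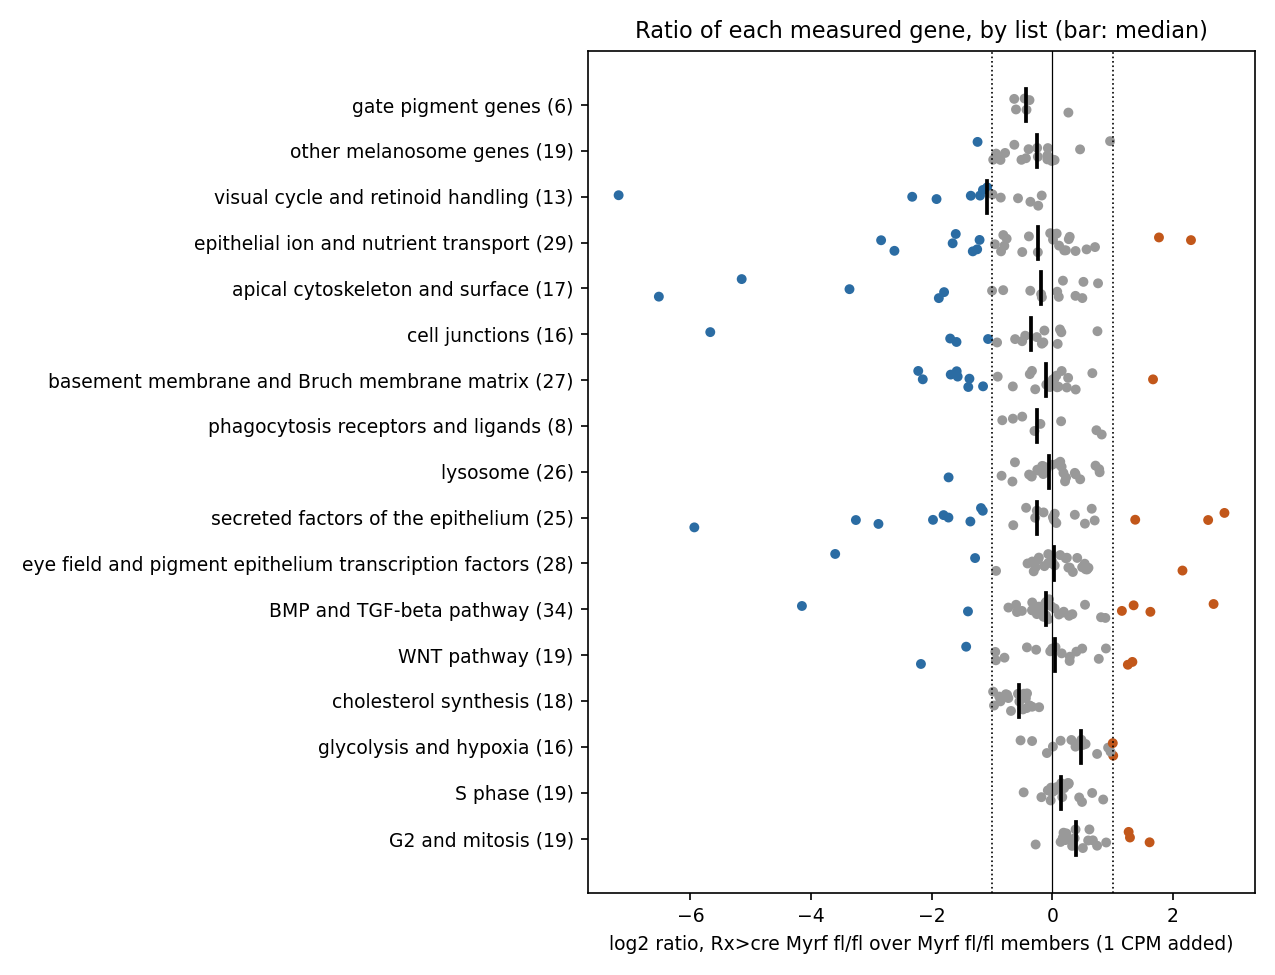
Log2 ratio of mutant over control members (x axis, 1 CPM added) for each measured gene of 17 gene lists, with the number measured in brackets, a black bar at the median, dotted lines at 2-fold and colour for genes past them. Visual cycle genes have a median of -1.08, and both these and the cholesterol synthesis genes all lie below 0.

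Within the members, some barcodes were low in Ttr and some other RPE genes while keeping pigment. This group was chosen after the values were seen: less than 0.3% of UMIs from Ttr, Cst3, Col8a1 and Col9a3, and at least 0.3% from Gja1, Igfbp7, Mgst1, Slc38a8, Pcp4 and Slc6a15. It held 35 control members (7.81%, 5.50% to 10.7%) and 37 mutant members (19.5%, 14.1% to 25.8%). As a share of kept barcodes the group was 0.248% in the control and 0.308% in the mutant, while the rest of the members were 2.92% and 1.27%. The sums that define the group use genes that themselves differed between genotypes, such as Ttr (-1.92), Cst3 (-0.84), Col9a3 (-1.37) and Gja1 (0.75), so the group's sizes are a description and no comparison of genotypes. No name is given to this group, because no marker list was fixed for it.

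In this group, the gate genes were unequal. Pmel was at 13421 and 12593 CPM in control and mutant, against 14817 and 10701 CPM in the rest, and Dct at 6851 and 5490 CPM against 6280 and 4452 CPM. Mlana was at 2044 and 2118 CPM against 1244 and 815 CPM, while Tyrp1 was at 635 and 987 CPM against 1540 and 979 CPM. Mlana was thus higher than in the rest in both genotypes, and Tyrp1 was lower in the control. Trpm1 was at 2663 and 2849 CPM and Pax6 at 558 and 497 CPM. Slc7a11 was at 287 and 265 CPM, against 5.26 and 6.99 CPM in the rest, so the group accounted for most of it in both genotypes. Rgr had no UMI there in either genotype and Slc16a8 had 0 and 2 UMIs. Myrf had 13 and 14 UMIs, at 71.8 and 41.6 CPM. Some genes that were higher in mutant members elsewhere were closer here: Id3 was at 1978 and 1868 CPM (-0.08, -0.27 to 0.11), against 672 and 2369 CPM in the rest (1.82). Id1 was at -0.50 in the group and 1.52 in the rest, Lmo1 at 0.95 and 2.28, and Enpp2 at 1.79 and 2.96. Genes as a whole were not closer: over the 2484 measured in the group, the median absolute log2 ratio was 0.285 there and 0.207 in the rest. Of these, 91 were higher (3.66%) and 59 lower (2.38%) in the group, against 50 (2.01%) and 38 (1.53%) in the rest. The group's ratios rest on fewer UMIs, and the difference between group and rest was not tested.

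**Figure D5:**
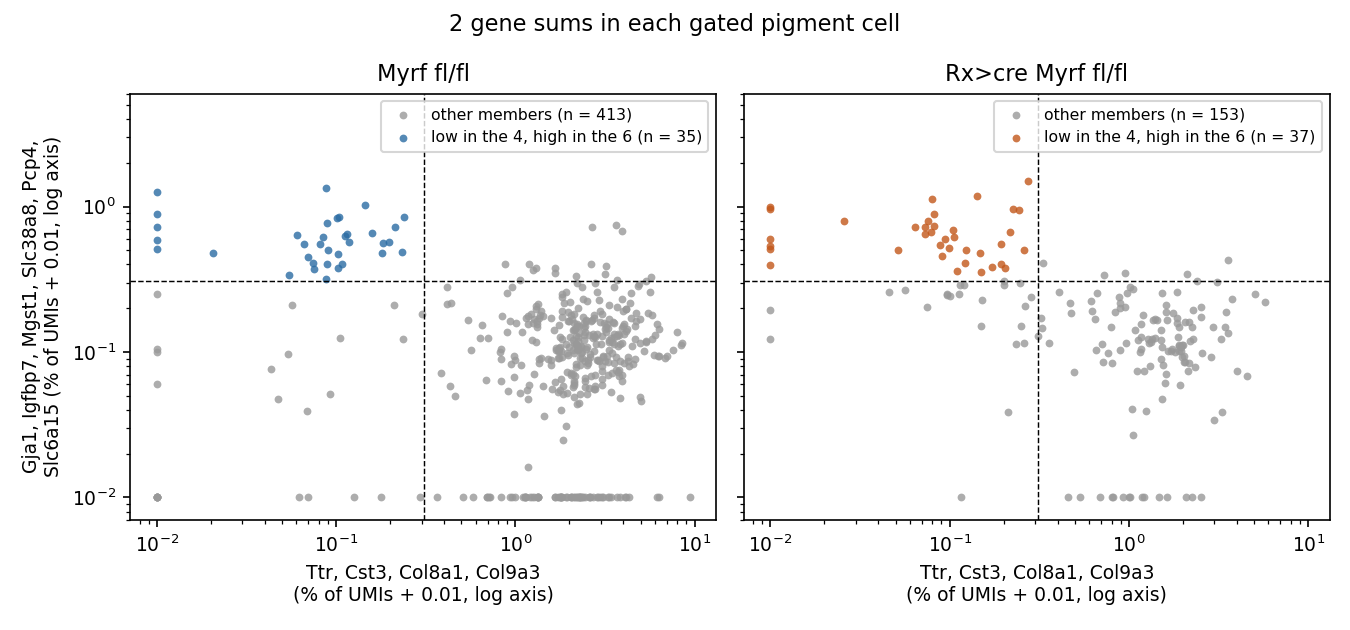
Share of UMIs from Ttr, Cst3, Col8a1 and Col9a3 (x axis) against the share from Gja1, Igfbp7, Mgst1, Slc38a8, Pcp4 and Slc6a15 (y axis) in each member, in percent plus 0.01 on log axes, for the Myrf fl/fl (left) and Rx>cre Myrf fl/fl (right) libraries. Coloured points are the 35 control and 37 mutant members low in the 4 and high in the 6 genes, and dashed lines are at 0.3%.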

How the data were processed

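Both 10x Genomics 3′ gene expression libraries, 1 per genotype, were analysed. The authors deposited raw UMI counts per gene and barcode after cell calling with Cell Ranger (7.1.0 in the submitters' processing notes, 3.1.0 in the matrix headers) on mm10. Seurat 4.1.1 is named in the notes, and the deposited counts carry no normalization. Of 31053 counted features, 30934 matched the GRCm38 annotation used for coordinates. Barcodes with at least 200 genes and at most 15% mitochondrial counts were kept. The members and lists were chosen with earlier results of these data known. Counts were summed over members and given as CPM. A gene with at least 30 UMIs over both libraries was measured, and 2-fold was the limit for higher or lower. The genes named were the 12 lowest and 12 highest log2 ratios among genes with intervals apart from 0 and at least 2 times the level of other barcodes in the library where they were higher (mitochondrial, sex-linked and gate genes left out), the 15 most above other barcodes in both libraries, and members of lists covering RPE functions, pathways and cell types. Intervals were exact Poisson, conditional Poisson or Clopper-Pearson. A count of 0 was set to 3 UMIs for bounds. No doublets were removed. Scrublet (scanpy 1.11.5) marked 0 control barcodes at an expected 11.4% and so did not work there, and marked 4.96% of mutant barcodes and 14 mutant members. The summing and ratio steps were tested on simulated data. Tools were Python 3.11.15, numpy 2.4.6, scipy 1.17.1, pandas 2.3.3 and edgeR 4.0.16 (scaling only). Promoters came from RefSeq on GRCm38.p6.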

Additional observations from a re-analysis of the deposited data

How the results depend on the processing

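No paired analysis was possible because each genotype had 1 library. The log2 ratio of the member share, -1.005 as reported, was -1.37 with a gate of 2%, -1.65 with a mitochondrial limit of 5% and -0.39 without members carrying markers of another class. Out of kept barcodes of the same depth alone, it was -0.61 up to 2000 UMIs (6.60% and 4.32%) and -0.59 above 4000 UMIs. Out of all kept barcodes, control and mutant members with up to 1000 UMIs were 0.566% and 0.175%. Those with 1000 to 2000 UMIs were 0.694% and 0.116%. Among alternatives chosen after seeing the data the log2 ratio of the share was -1.60 up to 4000 UMIs, likewise out of kept barcodes of that depth. It was -2.87 in barcodes with Xist but without Y-linked transcripts and 0.31 in those with a Y-linked UMI and no Xist. The cause of these shifts was not tested. Lower genes numbered 451 as reported, 159 with members up to 2000 UMIs, 288 up to 4000, 209 after thinning to 1000 UMIs, 757 as a mean of the members' own shares, 248 with at least 100 UMIs and 897 with no count minimum. Of these, 61, 96, 100, 344, 248 and 451 were among the 451. The genes measured also changed, from 10341 as reported to 1266 up to 2000 UMIs, 2444 up to 4000 and 2849 after thinning. As shares of the genes measured, the lower genes were 4.36% as reported and 12.6%, 11.8%, 7.34%, 7.32%, 3.70% and 5.37% in the order above. Higher genes numbered 244 as reported and 45, 72, 61, 490, 100 and 603 in the same order, of which 9, 8, 19, 169, 100 and 244 were among the 244, and 137 with 5 CPM added, all among them. Their shares of the genes measured were 2.36% as reported, then 3.55%, 2.95%, 2.14%, 4.74%, 1.49% and 3.61%, and 1.32% with 5 CPM added. Genes 4-fold above other barcodes numbered 417 as reported, 20 with members up to 2000 UMIs, 42 up to 4000, 273 with the mitochondrial limit of 5%, 107 after thinning and 223 in barcodes with a Y-linked UMI and no Xist. As shares of the genes measured in members of both libraries these were 5.36%, 10.7%, 11.3%, 6.91%, 12.2% and 8.77%. The median ratio of red blood cell markers was reversed to 0.63 up to 2000 UMIs and 0.35 in the Y-linked barcodes. Of named genes past 2-fold, these changed sign: Hbb-bs at 0.63 up to 2000 UMIs, 0.61 up to 4000, 0.41 without markers of another class and 0.35 in the Y-linked barcodes, and, with the mean of own shares, Hbb-bt at 0.46, Csf1r at 0.090 and Pdgfra at -0.19, and Ube2c at -0.55 up to 4000 UMIs and -0.52 after thinning. Without the members carrying markers of another class, Hbb-bt was at -0.04 in place of -1.07. Signs of smaller ratios also changed. Of 98 named genes past 2-fold, 57 stayed past it in every alternative that measured them and 41 did not in at least 1.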

Other observations

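Gene groups outside the RPE functions also differed in size. Cholesterol synthesis genes were all below the control level in mutant members, the lowest being -0.98 for Mvd. None of 18 passed 2-fold, against 4.36% lower and 2.36% higher of all genes. An interval below 0 was found for 17, but the share of all genes with such an interval was not counted. The median log2 ratio was -0.56, against 0.00 over all genes, while the same genes had a median of 0.32 in all other barcodes. Glycolysis and hypoxia genes had 2 of 16 just past 2-fold higher (highest 1.01, Ldha, which was at 0.62 up to 4000 UMIs, 0.77 after thinning and 0.99 with TMM scaling), against 2.36% of all genes, and a median of 0.48, and all other barcodes had nearly the same median, 0.50. Among 9 genes of epithelial to mesenchymal transition, Tagln (21 and 56 UMIs, 1.65) and Ctgf (218 and 510 UMIs, 1.59, or 0.74 after thinning) were higher, against 2.36% of all genes, though Tagln was at 0.06 without members carrying markers of another class. Fn1 (148 and 23 UMIs, -2.19) was lower, against 4.36% of all genes, but was at -0.62 without those members. Of 16 genes of p53 response and apoptosis, Perp (75 and 177 UMIs, 1.58) passed 2-fold, near the 2.36% of all genes, and the median was 0.11. Of 15 immediate early and dissociation genes, Atf3 (55 and 9 UMIs, -1.96) was lower and Fosb (32 and 78 UMIs, 1.57, or 0.79 with a gate of 2%) higher, near the 4.36% and 2.36% of all genes.

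Cell cycle transcripts were in fewer members than retinal barcodes at equal depth. Those retinal barcodes were chosen on retinal progenitor markers, the cyclin gene Ccnd1 among them. A higher share with cell cycle transcripts there was thus partly set by the choice. Reduced to 1000 UMIs, 14.4% of control and 11.8% of mutant members had at least 2 UMIs of S phase genes, against 42.5% and 48.0% of retinal barcodes, and 13.6% and 11.8% had as many of G2 and mitosis genes, against 35.8% and 35.6%. Without thinning the member shares were 56.9% and 76.8% for S phase and 33.9% and 44.2% for G2 and mitosis. None of 19 S phase genes passed 2-fold (median 0.15), and 3 of 19 G2 and mitosis genes were higher, against 2.36% of all genes (Ccnb2 1.61, Aurka 1.29 and Ube2c 1.27, median 0.39). None of these 3 calls held in every alternative: Ccnb2 was at 0.25 with a gate of 2%, Aurka at 0.81 as a mean of the members' own shares, and Ube2c at -0.52 after thinning. Among 8 cell cycle inhibitors and D cyclins, Cdkn1b, which encodes p27, was lower, at 131 and 58.4 CPM (-1.15, -1.45 to -0.89, or -0.77 after thinning), against 4.36% of all genes, and the median was 0.02.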
